A study of Mus musculus with 6 samples.

Results

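Semaphorins are guidance ligands, some secreted and some held at the membrane, that steer growing axons and dendrites and prune synapses. They signal through plexins, single-pass receptors whose cytoplasmic part acts on small GTPases; most secreted class 3 semaphorins need a neuropilin as co-receptor to reach a plexin A, and Sema3e instead binds Plxnd1 directly. Collapsin response mediator proteins (CRMPs) are cytosolic proteins that link this signal, through phosphorylation by kinases such as Cdk5 and Gsk3b, to microtubules and actin. In the hippocampus these genes are known for guiding mossy fibre axons and for shaping dendrites and spines.

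The genes were taken by symbol from the deposited table of wild type (WT) against *Fmr1* knockout (KO) hippocampal neurons, as every symbol starting with Sema and a digit or with Plxn, together with Nrp1, Nrp2, Crmp1, Dpysl2, Dpysl3, Dpysl4 and Dpysl5. This gave 37 genes from 39 of the 48100 rows, with 20 semaphorins, 9 plexin receptors, 1 transcript antisense to a plexin gene, 2 neuropilins and 5 CRMPs. Sema4f and Dpysl4 had 2 loci each, and the locus with the higher mean level was used.

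Total RNA came from primary hippocampal cultures after 14 days in vitro, with 3 libraries from WT mice and 3 from *Fmr1* KO mice, both labelled C57BL/6. The cultures were made from newborn pups. The study describes its mice as male KO animals and WT littermates and, for the study as a whole, several litters and culture batches. Fewer litters are given for biochemical analyses of primary neurons than for work on animals. The sex of the pups and the litter or batch behind each library were not found in the sources used here. *Fmr1* encodes FMRP, an RNA-binding protein lost in fragile X syndrome. Levels are FPKM, in which fragments are scaled by transcript length and library size, so they can be compared between genes of different length, and no read numbers come with them.

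*Fmr1* itself was at 19.0, 19.4 and 19.7 FPKM in WT and at 23.1, 21.8 and 18.5 in the libraries labelled *Fmr1* KO (log2 change 0.12, adjusted p = 0.536 in limma). It was not lower in the KO-labelled libraries, so every direction given here rests on the labels. The cultures held neurons and glia. Summed over 4 neuronal genes (Rbfox3, Snap25, Syt1, Map2), FPKM ran from 781 to 806 in WT and from 789.9 to 850.5 in KO, and over 4 astrocyte genes (Gfap, Aqp4, Slc1a3, Aldh1l1) from 984 to 1141 and from 1027 to 1136, both with overlap. Summed over 6 microglia genes, FPKM ran from 3.75 to 6.01 in WT and from 0.895 to 2.39 in KO, with Aif1 listed at 0 in all libraries. For 5 endothelial genes the sum ran from 2.47 to 2.54 in WT and from 1.53 to 2.24 in KO. For 5 fibroblast and mural genes it ran from 45.8 to 50.2 in WT and from 37.4 to 45.3 in KO. Neither of these sums overlapped between genotypes. Summed over 4 Y-linked genes, a list added after the data had been seen, it ran from 18.7 to 19.7 in WT and from 35.4 to 38.2 in KO. The part of these differences in the results below was not tested. In bulk RNA, fewer cells of a type and less RNA per cell cannot be told apart.

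Of the 37 genes, 33 averaged at least 1 FPKM in WT or in KO and were tested, within one limma fit of log2(FPKM + 0.1) over 13195 loci. Plxnb3 reached this minimum only in WT and Sema4f only in KO, and the other 31 reached it in both. The remaining 4 genes were Sema3b and Sema3g, with mean FPKM of 0.524 and 0.0778, the antisense transcript Plxna4os1, with 0.00414, and Dpysl4, which was listed at 0 in every library at both of its loci. A value of 0 can also be an estimate that failed, so it does not show that Dpysl4 RNA was missing.

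One gene passed a Benjamini-Hochberg adjusted p of 0.05, the CRMP gene Dpysl3, which was higher in KO. Over all tested loci, 0.265% were called by this rule, 0.0909% higher and 0.174% lower; of the 33 genes, 1 was higher and 0 were lower by limma. At an unadjusted p below 0.05 in limma, 7 genes were higher and 2 lower, where 6.99% of all loci were higher and 7.77% lower. The 3 KO libraries lay wholly above the 3 WT libraries in 9 genes and wholly below them in 2, so that 11 of 33 did not overlap, against 10.8%, 10.3% and in all 21.1% of tested loci. The median log2 change was 0.07 over the 33 genes and 0.005 over all tested loci, and 25 of the 33 were above 0, against 51.7% of all loci. Without WT replicate 1 the median over these genes was 0.04. Plxnb3, which reached the FPKM minimum only in WT, is 1 of the 2 lower genes in both counts. Sema4f, which reached it only in KO, is among the 25 above 0. Of the genes of this group, Crmp1, Dpysl3, Dpysl5, Sema3e, Sema3f, Sema4b, Sema4g, Plxnb3 and Plxnc1 passed the unadjusted threshold.

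**Figure D1:**
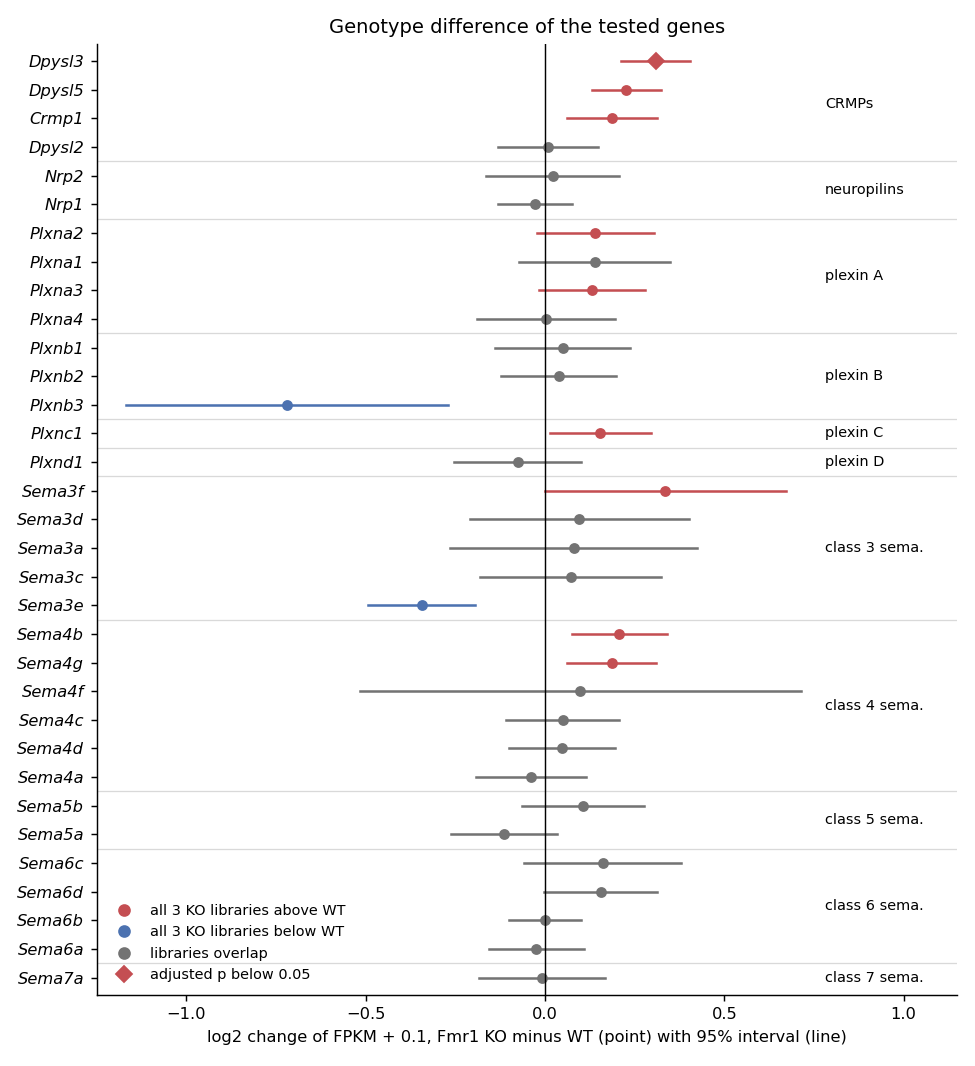
Log2 change of FPKM + 0.1 (*Fmr1* KO minus WT, horizontal axis) of the 33 tested genes, grouped by class, with 95% intervals from limma as lines. Red and blue points have all 3 KO libraries above or below WT, and the diamond is Dpysl3, the gene with an adjusted p below 0.05; Plxnb3 and Sema3e lie furthest to the left.

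Sequence upstream of the start is given for only 4 of the genes whose libraries did not overlap, to show what kind of start region each has. These are 2 CRMP genes that were higher in KO (Crmp1, Dpysl5) and the 2 genes that were lower (Sema3e, Plxnb3). Dpysl3 and the other separated genes are not shown, so the sequences do not stand for all separated genes. Each is the 250 bases before the annotated start in RefSeq (GRCm38.p6), on the plus strand. Capitals mark the GC box GGGCGG on either strand, with overlapping matches counted singly, and neither the TATA box TATAAA nor the E-box CACGTG occurred in any of them on either strand.
Crmp1, chr5:37241808-37242057: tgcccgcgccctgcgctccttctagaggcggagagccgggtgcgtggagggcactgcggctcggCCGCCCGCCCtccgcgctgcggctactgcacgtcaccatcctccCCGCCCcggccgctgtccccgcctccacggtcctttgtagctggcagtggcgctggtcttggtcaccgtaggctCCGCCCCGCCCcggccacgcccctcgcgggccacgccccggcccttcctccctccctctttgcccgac
Dpysl5, chr5:30711314-30711563: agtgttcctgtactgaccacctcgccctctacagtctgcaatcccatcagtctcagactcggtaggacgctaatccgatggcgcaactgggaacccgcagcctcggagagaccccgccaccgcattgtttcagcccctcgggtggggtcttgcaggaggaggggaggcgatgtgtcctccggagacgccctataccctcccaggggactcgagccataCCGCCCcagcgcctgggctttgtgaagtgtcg
Sema3e, chr5:14025026-14025275: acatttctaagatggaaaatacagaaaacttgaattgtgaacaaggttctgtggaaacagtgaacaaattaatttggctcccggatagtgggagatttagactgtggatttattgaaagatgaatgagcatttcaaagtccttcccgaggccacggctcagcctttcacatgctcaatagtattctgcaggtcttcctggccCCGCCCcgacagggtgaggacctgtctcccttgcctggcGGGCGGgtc
Plxnb3, chrX:73756853-73757102: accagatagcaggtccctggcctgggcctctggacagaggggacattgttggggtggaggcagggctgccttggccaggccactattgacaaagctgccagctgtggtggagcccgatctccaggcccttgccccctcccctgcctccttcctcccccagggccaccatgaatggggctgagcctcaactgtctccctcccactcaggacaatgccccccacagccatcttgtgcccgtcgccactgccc

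Crmp1 had 5 GC boxes and 30 CG dinucleotides in this window, Dpysl5 had 1 and 17, Sema3e had 2 and 7, and Plxnb3 had 0 and 3. Whether these counts go with the direction of change was not tested. Over all 32851 start regions of the table, the median number of CG dinucleotides was 6. A GC box was found in 32.7% of them, a TATA box in 12.4% and an E-box in 6.02%. The table held 28 of the 37 genes, and of the 2 starts listed for Crmp1 the one at the start of the deposited locus was used. The Plxnb3 start lies 544 bases inside its deposited locus. The printed window therefore lies within that locus, not upstream of it, and its counts describe the RefSeq start only.

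Apart from Dpysl4, listed at 0, the CRMP genes were the most abundant of the group, and they carried its only call. Dpysl3 (XLOC_040262, chromosome 18, 43320979 to 43438286), whose product CRMP4 binds actin filaments in growth cones, was at 99.6, 104 and 102.5 FPKM in WT and at 125, 125.5 and 129 in KO. All 3 KO libraries were above all 3 WT libraries, and the spread within each genotype was a small part of the gap. Its mean was 102 ± 2.34 in WT and 126.5 ± 2.07 in KO (SD, n = 3), 23.9% higher, with a log2 change of 0.31 (standard error 0.04, 95% interval 0.21 to 0.41, Benjamini-Hochberg adjusted p = 0.0307, limma). With a single library left out, the change stayed between 0.29 and 0.32 on the log2 scale while the adjusted p rose to between 0.0537 and 0.162. It was 0.078 without an FPKM minimum and 0.106 without the mean-variance trend.

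Dpysl5 (chromosome 5, 30711569 to 30814589) encodes CRMP5, a family member known to counter the growth-promoting action of CRMP2. It had an FPKM of 48.9, 50.1 and 49.5 in WT and of 58.2, 56.9 and 58.8 in KO. The genotypes did not overlap, and the mean was 17.1% higher in KO, with a log2 change of 0.23 (95% interval 0.13 to 0.32, adjusted p = 0.0753 in limma). Crmp1 (chromosome 5, locus 37242058 to 37337630), named for the response to collapsin, the class 3 semaphorin Sema3a, had 142, 131 and 125 in WT and 154, 150.1 and 149 in KO. The genotypes were again separated, but WT replicate 1 lay close to KO replicate 3, and the log2 change was 0.19 (95% interval 0.06 to 0.31, adjusted p = 0.191 in limma). Both genes thus missed the adjusted threshold. The Crmp1 locus overlaps Evc, which had a mean FPKM of 3.23. The CRMP gene Dpysl2 overlaps Pnma2, which had a mean FPKM of 12.6.

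Dpysl2, which encodes CRMP2, a tubulin-binding protein that promotes axon growth, had the smallest log2 change of the 4 measured CRMP genes. It had 58.0, 53.8 and 52.2 in WT and 58.5, 54.4 and 52.0 in KO, so the genotypes overlapped almost completely. Its log2 change was 0.01, with a 95% interval of -0.13 to 0.15, whose upper end lies below the estimates for Crmp1, Dpysl5 and Dpysl3. The intervals of Crmp1 and Dpysl5 overlap that of Dpysl2, and differences between these genes were not tested. Taken within a library, the ratio of Dpysl3 to Dpysl2 FPKM was 1.72, 1.94 and 1.96 in WT and 2.14, 2.31 and 2.48 in KO. The ratio of Crmp1 to Dpysl2 was 2.46, 2.43 and 2.39 in WT and 2.63, 2.76 and 2.86 in KO. In both ratios, which do not depend on the scaling of a library, every KO library was above every WT library. Dpysl3 and Crmp1 were already separated by themselves and Dpysl2 hardly changed, so the ratios are not separate support. No test was run on them.

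Summed over the CRMP genes, FPKM was 349, 339 and 329 in WT and 396, 387 and 388 in KO, or 115% of WT at the mean. The share of Crmp1 in this sum was 39.1 ± 1.51% in WT and 38.6 ± 0.331% in KO (SD, n = 3). That of Dpysl2 was 16.1 ± 0.433% and 14.1 ± 0.691%, and that of Dpysl3 30.2 ± 1.41% and 32.4 ± 0.785%. Among markers of cell types, summed FPKM of 4 oligodendrocyte precursor genes ran from 297.5 to 349.4 in WT and from 349.1 to 386 in KO. That of 4 proliferation genes ran from 27.6 to 33.1 in WT and from 32.7 to 38.2 in KO. Both sums overlapped between genotypes, by a narrow margin. All 4 genes of each list had log2 changes above 0, with medians of 0.19 and 0.23. Pdgfra, Olig2 and Top2a were separated and higher in KO, and the others overlapped. No gene of either list passed the adjusted threshold in limma. Of the 4 neuronal genes, the dendritic marker Map2 averaged 302 FPKM in WT and 362 in KO (limma adjusted p = 0.0593), while the other 3 had log2 changes below 0 and the median of the 4 was -0.06. The part of these marker levels in the CRMP values was not tested.

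**Figure D2:**
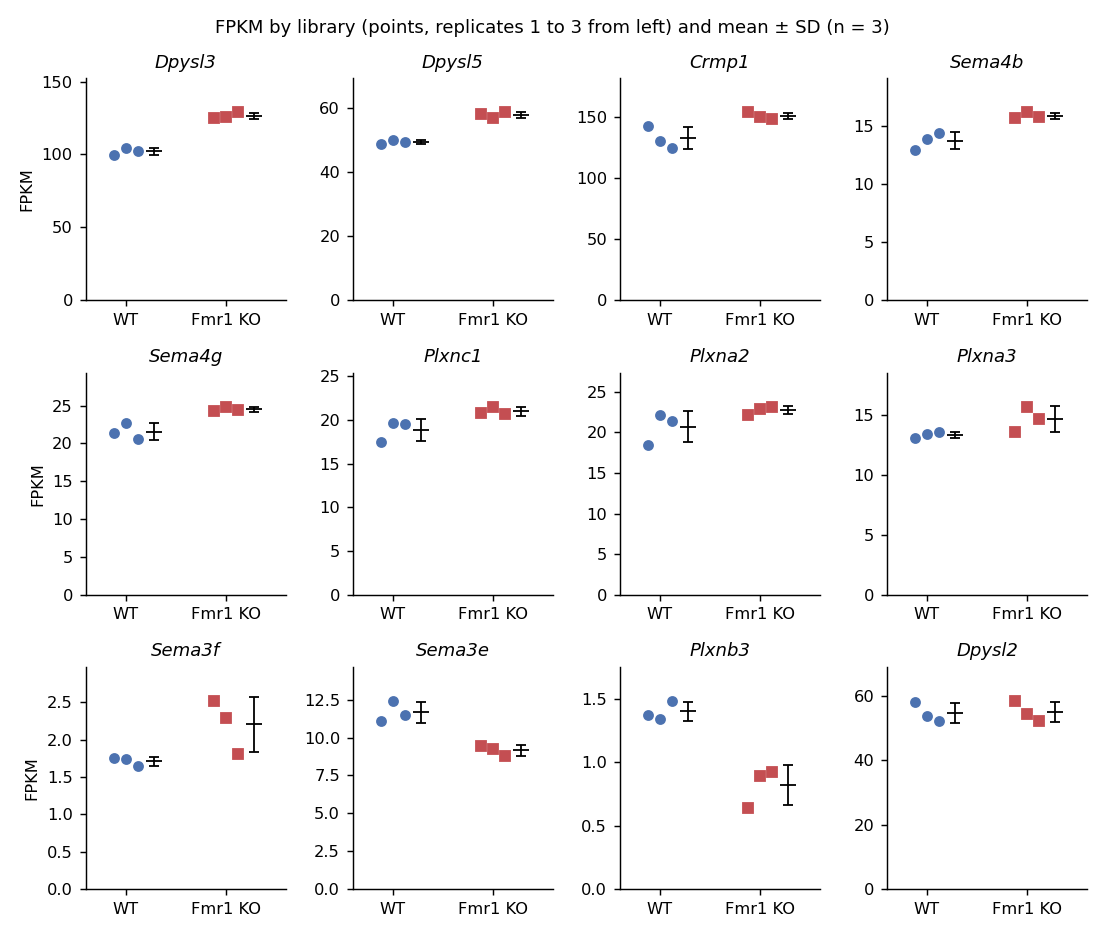
FPKM (vertical axis, from 0) in each WT library (blue circles) and *Fmr1* KO library (red squares), with mean ± SD (n = 3) beside them, for the 11 genes whose libraries did not overlap between genotypes and, last, Dpysl2. The gap is clear of the spread for Dpysl3, Dpysl5 and Sema3e and narrow for Plxna2 and Plxna3, and the Dpysl2 panel shows 2 overlapping groups.

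Sema3e (XLOC_010962, chromosome 5, 14025276 to 14256689), a secreted ligand that acts through Plxnd1, was the most abundant class 3 semaphorin. Its FPKM was 11.1, 12.4 and 11.5 in WT and 9.47, 9.25 and 8.78 in KO. All KO libraries were below all WT libraries, with a mean of 11.7 ± 0.681 in WT and 9.17 ± 0.353 in KO (SD, n = 3). The log2 change was -0.34 (standard error 0.07, 95% interval -0.49 to -0.19, adjusted p = 0.0763 from limma), which missed the threshold over all loci. The adjusted p lay between 0.0573 and 0.25 under the 14 alternatives run. Its receptor gene Plxnd1 had 11.1, 13.2 and 12.8 in WT and 11.2, 12.3 and 11.6 in KO, with overlapping libraries and a log2 change of -0.08 (95% interval -0.25 to 0.10), between -0.15 and -0.03 with single libraries left out.

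Sema3f, a secreted ligand of Nrp2 known for the pruning of spines and of the infrapyramidal mossy fibre bundle, had the opposite sign at a low level. It had 1.75, 1.74 and 1.64 in WT and 2.52, 2.29 and 1.81 in KO. The libraries did not overlap, but KO replicate 3 lay just above the WT range, and the log2 change was 0.34 (95% interval 0.00082 to 0.67, adjusted p = 0.337 in limma). The other class 3 genes had mean FPKM of 2.67 for Sema3c, 2.06 for Sema3d and 1.63 for Sema3a, the classical collapsin, and their libraries overlapped. Over the 5 tested class 3 genes the log2 change ran from -0.34 to 0.34 with a median of 0.08, which was 0.01 without WT replicate 1, and Sema3e and Sema3f were the 2 ends of the class.

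Of the membrane-bound class 4 semaphorins, all 6 were tested and 2 were separated, both higher in KO, where 10.8% of all tested loci were separated and higher. Sema4b (chromosome 7, 80186841 to 80226646), a transmembrane ligand found at synapses, had an FPKM of 12.9, 13.9 and 14.4 in WT and 15.6, 16.1 and 15.7 in KO. Its log2 change was 0.21 (95% interval 0.07 to 0.34, adjusted p = 0.173 in limma). Sema4g (chromosome 19, 44988966 to 45003397), the most abundant gene of the class, had 21.4, 22.7 and 20.5 in WT and 24.3, 24.9 and 24.4 in KO, a log2 change of 0.19 (95% interval 0.06 to 0.31, adjusted p = 0.191 in limma). In both genes the KO libraries lay closer together than the WT libraries did. The other 4 genes overlapped between genotypes, and the class ran from -0.04 to 0.21 on the log2 scale with a median of 0.07. Their mean FPKM was 15.9 for Sema4a, 15.1 for Sema4d, the ligand of Plxnb1, 5.37 for Sema4c and 0.975 for Sema4f.

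The libraries overlapped in all genes of classes 5, 6 and 7. Sema6b, a transmembrane ligand that repels mossy fibres through Plxna4, was the most abundant semaphorin and the steadiest. It had 36, 35.35 and 35.95 in WT and 35.3, 35.7 and 36.4 in KO, a log2 change of 0.00031 with a 95% interval of -0.10 to 0.10. Sema5b, which carries thrombospondin repeats and limits synapse number, had 13.4, 13.7 and 14.9 in WT and 13.7, 15.9 and 15.9 in KO, with a log2 change of 0.11 (95% interval -0.06 to 0.28). It overlaps the pseudogene Gm5963, which had a mean FPKM of 10.2, so its reads may be shared. Sema7a, the one semaphorin with a lipid anchor and a ligand of Plxnc1, had 11.3, 13.2 and 13.3 in WT and 12.1, 12.1 and 13.3 in KO, with a log2 change of -0.01 (95% interval -0.18 to 0.17). Mean FPKM was 22.5 for Sema6d, 8.18 for Sema6a, 6.09 for Sema6c and 11.3 for Sema5a, and the log2 changes of the 4 class 6 genes ran from -0.02 to 0.16.

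**Figure D3:**
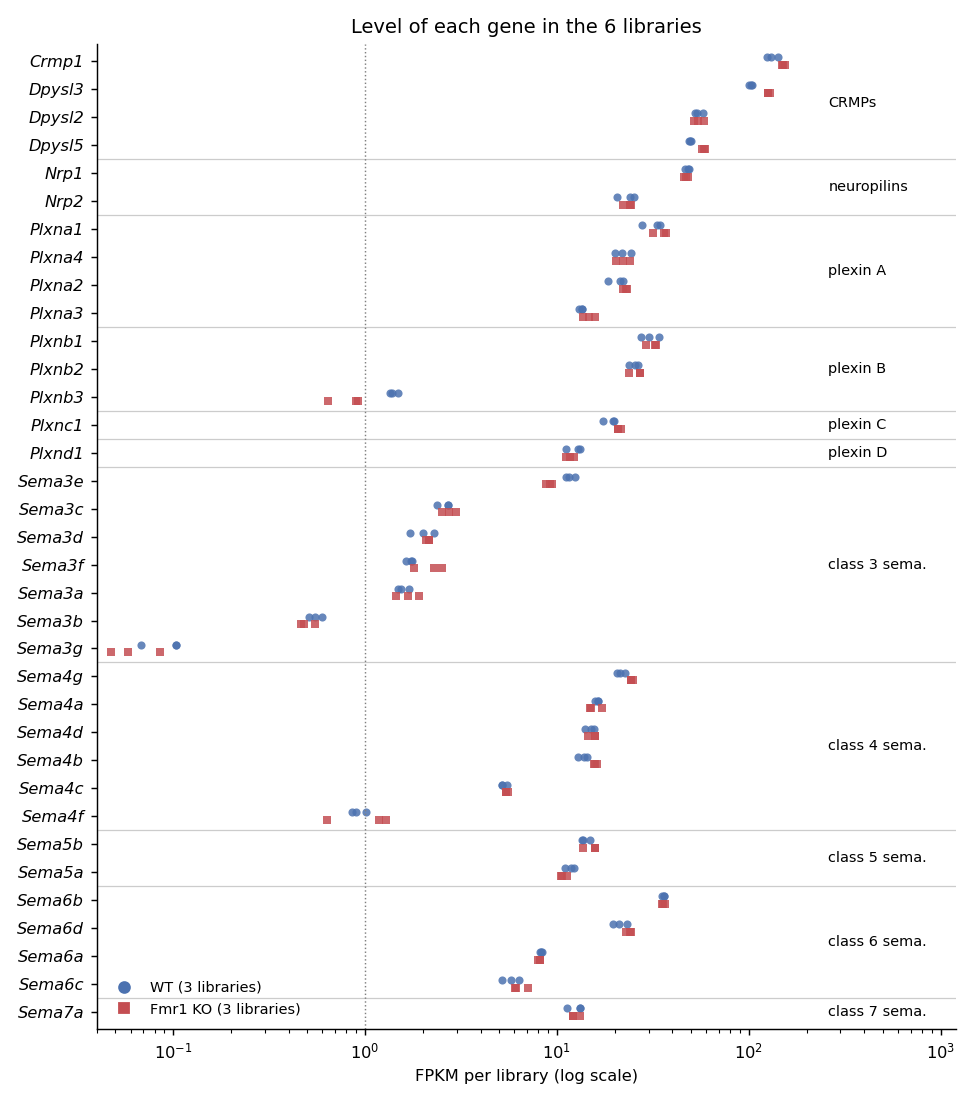
FPKM of each gene in the 3 WT (blue circles) and 3 *Fmr1* KO (red squares) libraries on a log scale, grouped by class and ordered by mean level, with the FPKM minimum of 1 as a dotted line. Dpysl4 and Plxna4os1, at or near 0, are left out. CRMP genes lie at the top from 48.9 to 154 FPKM, plexins other than Plxnb3 between 11.1 and 37.2, and class 3 semaphorins other than Sema3e below 3.

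Plxnb3 (XLOC_042335, chromosome X, 73756559 to 73772510), a receptor of Sema5a that in the brain is known from the oligodendrocyte lineage, had the lowest level of the plexin receptors and the largest log2 difference of the 33 genes. It entered the fit only through WT, where it is higher, with a KO mean below the minimum of 1, so its place among the tested genes depends on the difference itself. Its FPKM was 1.38, 1.34 and 1.49 in WT and 0.641, 0.896 and 0.924 in KO. The genotypes were separated, with a ratio of KO to WT means of 0.585 and a log2 change of -0.72 (standard error 0.20, 95% interval -1.17 to -0.27, adjusted p = 0.165 in limma). The size depends on the pseudocount at so low a level, from -0.78 with 0.01 to -0.40 with 1, and it was -0.57 without KO replicate 1, the lowest library.

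Plxnb3 starts 5.04 Mb from the end of *Fmr1*. In that region alleles carried along with the targeted gene and an effect of the genotype cannot be told apart. The 8 other tested loci within 100 kb of Plxnb3 had log2 changes from -0.18, for Bcap31, to 0.14, for Ssr4. Over the wider region, 73 tested loci start within 10 Mb of *Fmr1*, Plxnb3 and Plxna3 included. Of these, 2 passed the adjusted threshold in limma, against 0.265% of all loci. At an unadjusted p below 0.05 in limma, 9 were lower and 2 higher, where 7.77% of all loci were lower and 6.99% higher. Summed FPKM of 5 myelin genes ran from 44.1 to 50.4 in WT and from 37.4 to 46.3 in KO, with a mean of 0.0289 in WT and 0.0910 in KO for Mog. Summed FPKM of the oligodendrocyte precursor genes given above averaged 323 in WT and 368 in KO, with overlapping libraries. The part of these marker levels, and of the higher Y-linked sum in KO given above, in the Plxnb3 and Plxna3 values was not tested. The other X-linked plexin, Plxna3, which works with Nrp2 for Sema3f, starts 5.61 Mb from *Fmr1*. It had 13.1, 13.5 and 13.6 in WT and 13.6, 15.7 and 14.7 in KO, a log2 change of 0.13 (95% interval -0.02 to 0.28, adjusted p = 0.398 in limma), which was 0.08 without KO replicate 2.

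Among the other plexins, all of which were tested, Plxnc1 and Plxna2 were separated. Plxnc1 (chromosome 10, 94790866 to 94945275), the receptor of Sema7a, had an FPKM of 17.4, 19.7 and 19.5 in WT and 20.8, 21.6 and 20.7 in KO. Its log2 change was 0.15 (95% interval 0.01 to 0.29, adjusted p = 0.299 in limma), and 0.10 without WT replicate 1. Plxna2, which shapes hippocampal projections together with Sema6a, had 18.5, 22.1 and 21.4 in WT and 22.2, 22.9 and 23.2 in KO, a gap far smaller than the spread within WT. The most abundant plexin, Plxna1, a partner of the neuropilins, had 27.8, 34.3 and 33.4 in WT and 31.5, 36.3 and 37.2 in KO, with overlapping libraries. Plxnb1, the receptor of Sema4d, had 27.5, 30.3 and 33.9 in WT and 29.2, 33.0 and 32.6 in KO, and Plxnb2 had 23.8, 25.7 and 26.6 in WT and 23.8, 27.2 and 27.1 in KO. For these 4 genes the limma estimates and 95% intervals were 0.14 (-0.02 to 0.30) for Plxna2, 0.14 (-0.07 to 0.35) for Plxna1, 0.05 (-0.14 to 0.24) for Plxnb1 and 0.04 (-0.12 to 0.20) for Plxnb2. Mean FPKM of Plxna4 was 22.1 in both genotypes.

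The plexin genes also varied together within each genotype. WT replicate 1 was the lowest WT library in 8 of the 9 plexin receptor genes, and KO replicate 1 was the lowest KO library in 8 of 9. Both held in 7 of 9. Over all tested loci, WT replicate 1 was lowest in 37.2%, KO replicate 1 in 35.5% and both in 19.1%. Over all 33 tested genes the counts were 22, 20 and 15, and in the 4 tested CRMP genes they were 2, 1 and 1. Without WT replicate 1, the log2 change of Plxna1 was 0.04 and that of Plxna2 was 0.06. The median over the 4 plexin A genes fell from 0.13 to 0.05.

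**Figure D4:**
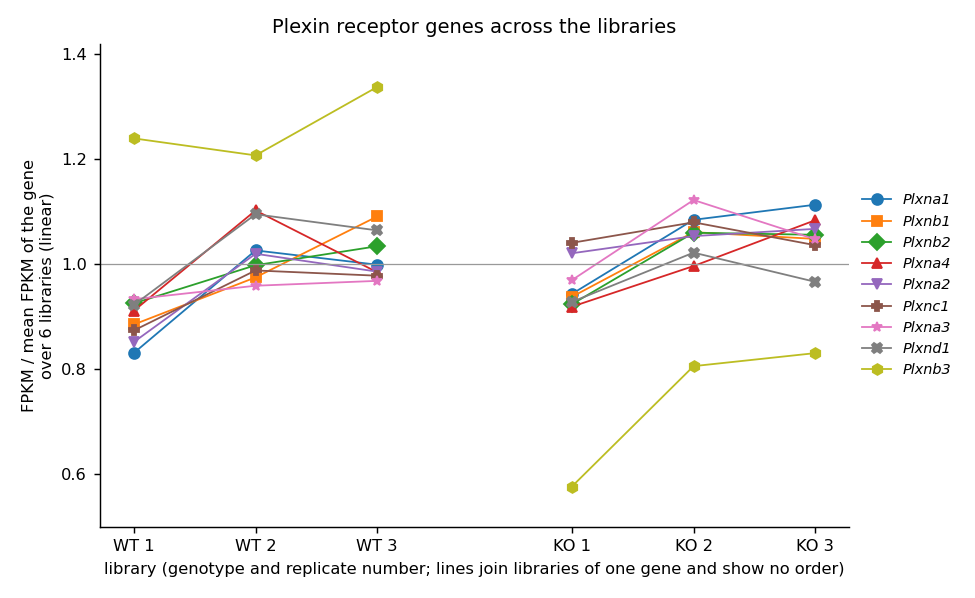
FPKM of the 9 plexin receptor genes in each library, divided by the mean of that gene over the 6 libraries (vertical axis, linear), with WT libraries on the left and *Fmr1* KO libraries on the right. Most genes dip in replicate 1 of both genotypes, and Plxnb3 goes from above 1.2 in WT to below 0.9 in KO.

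The neuropilins did not separate by genotype. Nrp1, the co-receptor of Sema3a and also of VEGF, had an FPKM of 48.3, 48.9 and 46.7 in WT and 48.3, 46.9 and 46.1 in KO, a log2 change of -0.03 (95% interval -0.13 to 0.08). Nrp2, the co-receptor of Sema3f, had 20.5, 25.1 and 24.2 in WT and 22.1, 24.0 and 24.4 in KO, a log2 change of 0.02 (95% interval -0.16 to 0.21). An interval of this width leaves room for a change of the size seen in Crmp1 for Nrp2 but not for Nrp1. The Nrp1 locus also carries the symbol of a microRNA gene, Mir1903.

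**Figure D5:**
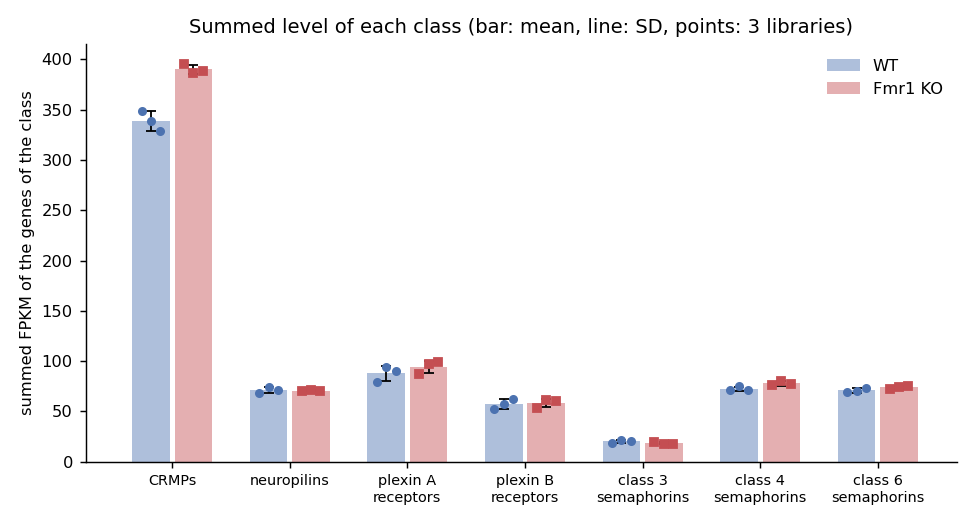
Summed FPKM of the genes of each class with at least 2 members except class 5 (bars are means, lines SD, points the 3 libraries of each genotype, WT in blue and *Fmr1* KO in red). The CRMP sum lies between 329 and 349 in WT and between 387 and 396 in KO, and the points of the neuropilins, the plexin A and plexin B receptors and the class 3 and class 6 semaphorins overlap between genotypes, while those of class 4 do not.

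Other genes of semaphorin signaling were taken from a list of 53 genes covering effectors, small GTPases with their regulators, and further co-receptors, of which 45 were tested. None passed an adjusted p of 0.05 in limma, and at an unadjusted p below 0.05 there were 3 higher and 3 lower; the median change was 0.03 on the log2 scale. These counts are near the shares over all loci, 6.99% higher and 7.77% lower, and the 6 genes are given as values. The 3 lower genes were Rras, Mical2 and Plxdc1. Rras, a small GTPase that plexins inactivate, had an FPKM of 11.99, 12.2 and 13.4 in WT and 10.6, 8.82 and 9.15 in KO (log2 change -0.40, adjusted p = 0.092 in limma). Mical2, an actin-oxidising enzyme of the MICAL family, had 49.8, 55.1 and 50.5 in WT and 45.7, 45.1 and 45.2 in KO (log2 change -0.19, adjusted p = 0.164 in limma). Plxdc1, a transmembrane protein with a plexin-like domain, had 1.51, 1.57 and 1.53 in WT and 1.26, 1.10 and 1.12 in KO.

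The 3 higher genes were Cntn2, Limk2 and Rock1. Cntn2, an axonal adhesion molecule, had an FPKM of 5.79, 6.26 and 7.01 in WT and 7.82, 9.67 and 9.18 in KO (log2 change 0.48, adjusted p = 0.0947 in limma). Limk2, a kinase that inactivates the actin-severing protein cofilin, had 28.2, 27.4 and 27.6 in WT and 30.3, 32.2 and 31.2 in KO (log2 change 0.17). Rock1, a kinase activated by RhoA, had 9.63, 9.72 and 10.3 in WT and 10.9, 10.7 and 11.3 in KO (log2 change 0.15). In all 6 genes, which were picked by their unadjusted p, the genotypes did not overlap, and none was past the adjusted threshold. Of the 45 tested pathway genes, 7 were separated and higher and 4 separated and lower. That is 24.4%, near the 21.1% of all tested loci that did not overlap.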

How the data were processed

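RNA-seq was done on total RNA of 3 WT and 3 *Fmr1* KO hippocampal cultures. The authors clipped and trimmed reads, aligned them to the GRCm38 genome by TopHat2 and deposited the FPKM that Cufflinks and Cuffdiff gave for each library; versions and library scaling: not given in the sources used here. Read depth is not known; counting error cannot be given, and precision rests on the 3 libraries of each genotype. The group FPKM, fold, p and q columns of the authors' Cuffdiff comparison were not used. Deposited starts count from 0, and 1 was added. The methods call the libraries triplicate samples or repeats and do not say whether those of a genotype came from separate cultures or animals, so p-values measure the spread between these libraries.

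FPKM are not counts, so limma 3.58.1 in R 4.3.3 was run on log2(FPKM + 0.1), which understates changes of weakly expressed genes. Loci averaging 1 FPKM or more in WT or in KO entered 1 fit with genotype as its only term and a mean-variance trend, tested two-sided with Benjamini-Hochberg adjustment. The fit was tested on simulated data. Exact permutation tests with 3 against 3 cannot go below p = 0.1, the value each separated gene has. Genes given per library were those at an unadjusted p below 0.05, those with separated libraries, the most abundant of each class, the top 10 by level and the X-linked plexins; of the other pathway genes, those at an unadjusted p below 0.05. Marker genes named besides these were chosen after their values were seen. The genes and lists were chosen with earlier results of these data known. The alternatives tried were other pseudocounts (1, 0.01), other FPKM minimums (none, 5), centred libraries, no trend, each library left out, the replicate number as a block, removal of the trend with gene span (lowess, span 0.3) and, for genes with 2 loci, their sum.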

Additional observations from a re-analysis of the deposited data

How the results depend on the processing

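The count of genes higher in KO at an adjusted p below 0.05, which was 1 (Dpysl3), was 0 without an FPKM minimum, 0 without the mean-variance trend and 0 with each library left out in turn. It was unchanged with either pseudocount, an FPKM minimum of 5, centred libraries, the gene span trend removed and the replicate block. With an FPKM minimum of 5, which drops Plxnb3 and all class 3 genes but Sema3e, 1 gene was lower at an unadjusted p below 0.05, 1 was separated and lower, and the class 3 median was -0.34. With single libraries left out, 2 to 4 genes were lower at an unadjusted p below 0.05 (4 without WT replicate 1), the median over the 33 genes ran from 0.04 to 0.09, the class 3 median from 0.01 to 0.13 (both lowest without WT replicate 1) and the class 4 median from 0.0521 to 0.124, and 2 to 7 pathway genes were higher (7 without WT replicate 2). Without an FPKM minimum, 5 pathway genes were lower at an unadjusted p below 0.05; the cause was not tested.

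Replicate numbers are shared between genotypes. The deviations of same-numbered libraries correlated at 0.243, 0.0577 and 0.0801 across loci. WT replicate 1 correlated at -0.122 and -0.131 with KO replicates 2 and 3. KO replicate 1 correlated at -0.119 and -0.152 with WT replicates 2 and 3. Replicate 1 thus went with its own number. WT replicate 2 was at 0.0658 with KO replicate 3, and WT replicate 3 at 0.0781 with KO replicate 2. Not every library correlated best with its own number, and the main fit did not treat same-numbered libraries as pairs. With the replicate block, 9 pathway genes and 10 of the semaphorin, plexin and CRMP genes were higher at an unadjusted p below 0.05, where 3 and 7 were without it; over all loci, such calls went from 922 to 1239. At an adjusted p below 0.05, the block moved the counts over all loci from 12 to 29 higher and from 23 to 36 lower. Depth is unknown, and differences of weakly expressed genes such as Plxnb3 and Sema3f are the least certain.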

Other observations

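Ratios of ligand and receptor levels within a library do not depend on how that library was scaled. The ratio of Sema3e to Plxnd1 FPKM was 0.999, 0.942 and 0.896 in WT and 0.847, 0.751 and 0.754 in KO, so all 3 KO libraries were below WT. Sema3e was already separated by itself and Plxnd1 changed little, so this ratio is not separate support. The ratio of Sema3f to Nrp2 was 0.0858, 0.0694 and 0.0680 in WT and 0.114, 0.0955 and 0.0741 in KO, with overlap. The ratio of Sema4d to its receptor gene Plxnb1 was 0.488 ± 0.0405 in WT and 0.487 ± 0.00921 in KO, and that of Nrp1 to Nrp2 was 2.08 ± 0.241 and 2.01 ± 0.154 (SD, n = 3), both with overlapping libraries. These pairs were chosen after the values of single genes had been seen, and no test was run on them.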
